A study of Mus musculus with 12 samples.

Results

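Gonadotropes are the anterior pituitary cells that make luteinizing hormone and follicle-stimulating hormone. The genes described here mark or direct these cells and are 6 of the 27129 genes in the deposited per-library table. They were chosen by name and without the hormone subunits. They are Gnrhr, the receptor for gonadotropin-releasing hormone (GnRH), the nuclear receptor genes Nr5a1 and Nr0b1, the forkhead gene Foxl2 with its antisense neighbour Foxl2os, and the forkhead gene Foxp2.

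GnRH from the hypothalamus reaches gonadotropes through the portal blood and binds a G protein-coupled receptor, the product of Gnrhr, which signals through Gq proteins, phospholipase C and protein kinases to the hormone subunit genes. NR5A1, also called SF-1, is an orphan nuclear receptor that in the anterior pituitary is found in gonadotropes and binds regulatory DNA of Gnrhr, Lhb and Cga. NR0B1, also called DAX-1, is a nuclear receptor without a DNA-binding zinc finger domain that represses NR5A1, and FOXL2 acts with SMAD proteins on Fshb and is present in gonadotropes and thyrotropes.

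RNA was sequenced from pituitaries of mice at postnatal day 0, after the posterior lobe had been taken off, in 6 libraries a group. All 12 animals carried Prop1cre, a Cre recombinase transgene that acts in pituitary progenitors and hence in the lineages that arise from them, not in gonadotropes alone. The 6 controls had the genotype Prop1cre;Isl1+/fx, with 1 floxed and 1 intact allele of the LIM-homeodomain gene Isl1, and the 6 libraries labelled mutant had Prop1cre;Isl1fx/-, with 1 floxed allele and 1 null allele. The controls thus also carry Cre and a floxed allele, and the comparison asks how these genes differ when no intact allele is left in Cre-expressing cells. Cells without Cre differ as well, since the animals labelled mutant carry a null allele where the controls carry an intact one. The parts of these differences cannot be told apart here. The control libraries held 46204920 to 51535425 fragments and the libraries labelled mutant 45415453 to 61533576. In all, 3 libraries had high Xist (control 4, mutant 0 and mutant 3). Their Y-linked genes had a mean log2(FPKM + 1) of 0.013, 0.066 and 0.023, against 4.387 to 4.531 in the other libraries. The values of control 0 and mutant 0 relate FPKM to fragments differently from the others. Whole-gene Isl1 was higher in the libraries labelled mutant (35.4 ± 3.04 against 59.3 ± 4.98 CPM, fragments relative to the library total after TMM scaling, SD, n = 6 each). It pools all exons of the gene and cannot check the labels.

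The genes lie on 5 chromosomes of the mm10 build, with intervals given as in the deposited table. Gnrhr is on chromosome 5 (86181998 to 86197870, minus strand), Nr5a1 on chromosome 2 (38692660 to 38720638, minus strand), Nr0b1 on chromosome X (86191775 to 86195944, plus strand) and Foxp2 on chromosome 6 (14901349 to 15441977, plus strand). Foxl2 (98955607 to 98958126, plus strand) and the long noncoding RNA gene Foxl2os (98949155 to 98955310, minus strand) stand head to head on chromosome 9, with 296 bases between them in the deposited table. The libraries kept no strand, and the GENCODE models of this pair share 12 bases. Of the 6 genes, Nr5a1 was the one whose interval in the table overlapped another gene, the antisense 4933433P16Rik. The table gives both genes the same interval, which runs past the RefSeq end of Nr5a1 at 38714542.

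The 250 bases before the RefSeq start (build GRCm38.p6) of the receptor gene, which fell most of the 6, and of Nr0b1, the other gene with a large fall and a window to compare, are printed 5′ to 3′ on the strand of the gene. Capitals mark matches to AAGGNCA, the extended single site bound by NR5A1, read on either strand. The Gnrhr window is chr5:86197902-86198151 (minus strand) and the Nr0b1 window is chrX:86191525-86191774 (plus strand).
Gnrhr: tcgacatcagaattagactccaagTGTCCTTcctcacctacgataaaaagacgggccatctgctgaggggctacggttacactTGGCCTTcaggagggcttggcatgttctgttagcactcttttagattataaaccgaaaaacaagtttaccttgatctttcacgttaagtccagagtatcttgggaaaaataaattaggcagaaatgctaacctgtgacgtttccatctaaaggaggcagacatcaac
Nr0b1: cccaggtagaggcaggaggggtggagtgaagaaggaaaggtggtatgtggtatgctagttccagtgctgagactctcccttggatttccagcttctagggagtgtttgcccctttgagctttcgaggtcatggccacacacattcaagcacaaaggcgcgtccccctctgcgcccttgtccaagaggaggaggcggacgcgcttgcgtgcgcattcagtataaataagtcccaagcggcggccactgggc

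RefSeq windows were matched for 4 of the 6 genes (Gnrhr, Nr0b1, Foxl2 and Foxl2os), and those of Foxl2 and Foxl2os share 204 bases. Both capital runs are in the Gnrhr window, on the strand opposite to the gene, from 226 to 220 and from 167 to 161 bases before the start. Of all 32851 such windows, 17.5% held AAGGNCA on either strand. The LIM-homeodomain core TAATTA, searched on both strands like the motifs that follow, was in 4.84% of all windows. The core bound by bicoid-type homeodomain proteins such as the PITX factors, GGATTA, was in 6.25%. For the site of GATA zinc finger factors, AGATAA, the share was 9.99%. The AP-1 site, at which products of immediate early genes bind, was written as TGANTCA and was in 6.75%. The forkhead site GTAAACA was in 3.17%. None of those 5 was in the 4 windows, and AAGGNCA was not in the other 3. A match is a run of letters, not a shown site, and the lack of one speaks of these windows alone.

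Of the 6 genes, 5 were lower in the libraries labelled mutant (Gnrhr, Nr0b1, Nr5a1, Foxl2 and Foxl2os) and 0 were higher, while Foxp2 did not pass the test. All 6 passed the filter on low values, Nr0b1 through the 6 controls alone, which fixes its direction there, and Gnrhr through 6 controls and 3 libraries labelled mutant. Both were also called with no filter. The test was edgeR's quasi-likelihood test with Benjamini-Hochberg adjustment over 15246 genes, called at an adjusted p under 0.05. It called 2.75% of the genes tested as lower and 4.3% as higher. The same 5 genes had groups that did not overlap, as did 1.37% of the genes tested in the lower and 2.91% in the higher direction. The exact two-sided permutation test over 924 splits gave p = 0.00216 for each of the 5, and no smaller p is possible with this design. In whole glands, fewer cells of a type and less RNA per cell cannot be told apart.

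**Figure D1:**
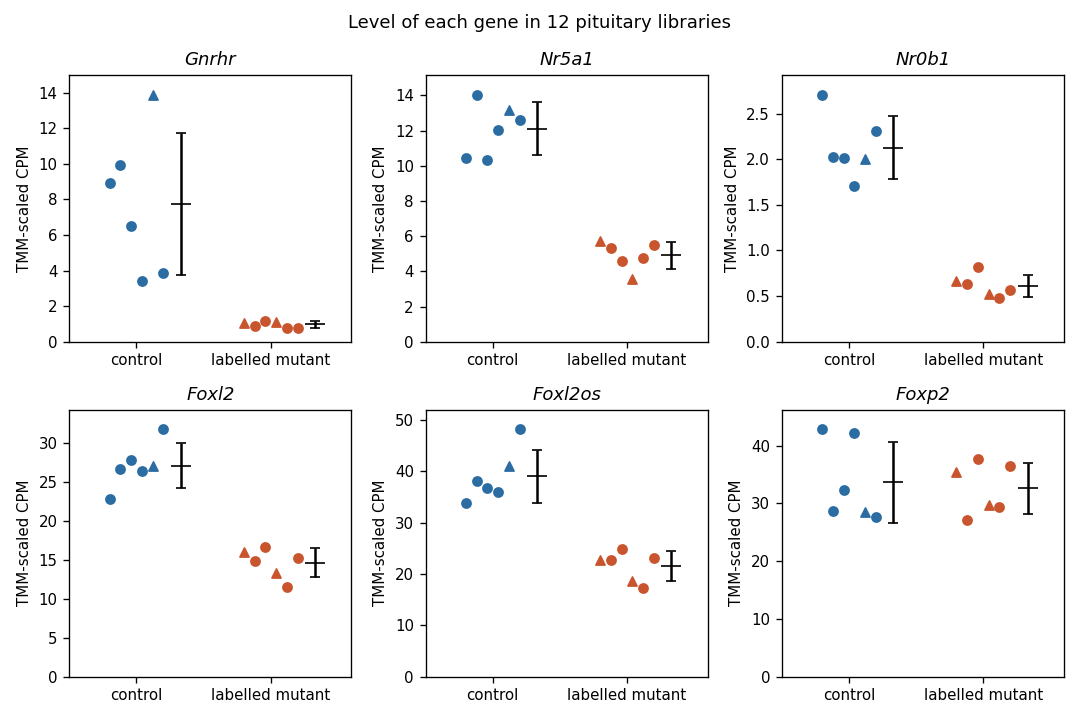
TMM-scaled CPM of the 6 genes in each library (y axis from 0), with controls in blue and libraries labelled mutant in orange. Triangles mark libraries with high Xist, and the bars beside the points give the mean and SD of 6 libraries. The groups are apart for Gnrhr, Nr5a1, Nr0b1, Foxl2 and Foxl2os and overlap for Foxp2.

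Gnrhr, the receptor through which gonadotropes sense GnRH, fell most. Its level by control library, 0 to 5, was 8.92, 9.94, 6.49, 3.44, 13.9 and 3.84 CPM, scaled by the trimmed mean of M-values (TMM). In the libraries labelled mutant it was 1.06, 0.913, 1.18, 1.12, 0.749 and 0.799 CPM, which rest on 34 to 71 fragments a library. The highest of these lay below the lowest control, control 3. The controls averaged 7.75 ± 3.99 CPM and the others 0.971 ± 0.177 CPM (SD, 6 libraries each), or 12.6% of the control level. The log2 fold change was -2.99 (standard error 0.329, 95% interval -3.69 to -2.28, edgeR adjusted p 5.71e-05), a 7.92-fold fall. It was the lowest log2 fold change of the 15246 genes in this fit. It ranked 1 to 3 from the lowest in the 23 fits on filtered counts that tested it, 12 to 15 in the 3 limma fits on log2 FPKM, and 27 with no filter on low values.

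The controls spread widely for Gnrhr. The highest control, the high-Xist control 4, was 4.04 times the lowest, control 3, against 1.58 times between the extremes of the libraries labelled mutant. The SD of log2(CPM + 0.5) over the controls was 0.74, larger than that of 99.4% of the genes tested, whose median was 0.10. In the libraries labelled mutant it was 0.18, larger than that of 81.9%. Without the 3 libraries with high Xist the log2 fold change was -2.82 (edgeR adjusted p 0.001).

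**Figure D2:**
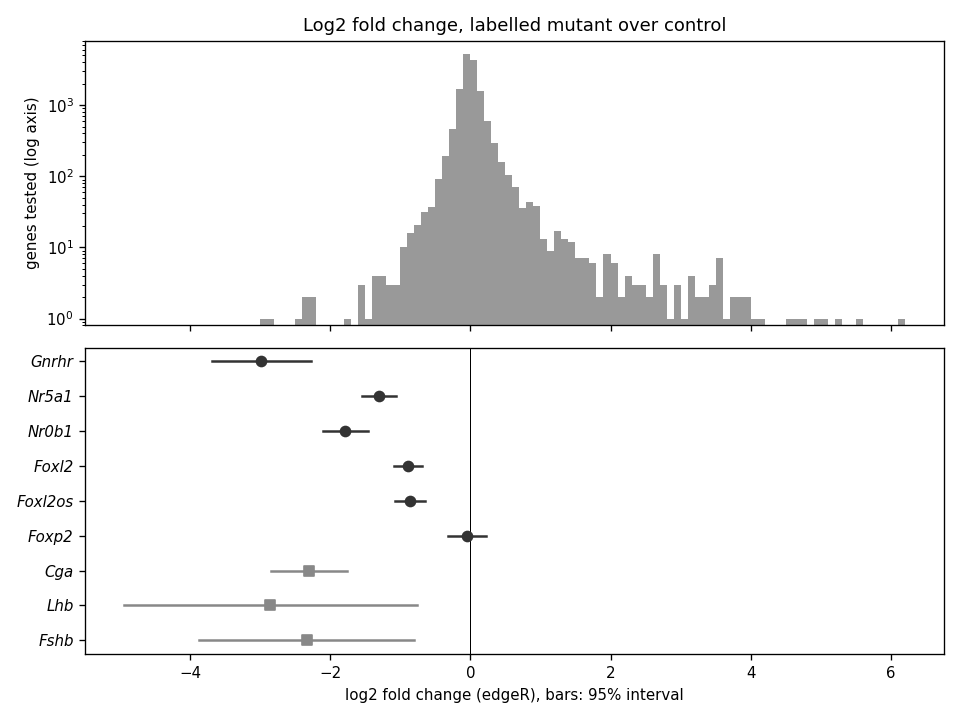
The upper panel counts all 15246 tested genes by log2 fold change, libraries labelled mutant over control (y axis logarithmic). The lower panel gives the fold change and 95% interval of each of the 6 genes (circles) and of the 3 hormone subunit genes (squares), with Gnrhr at -2.99 in the left tail and Foxp2 at -0.05 in the bulk.

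The pair of nuclear receptor genes also fell. Nr5a1 ranged from 10.3 through a median of 12.3 to 14.0 CPM in controls and from 3.59 through 5.05 to 5.72 CPM in the libraries labelled mutant. All libraries labelled mutant were below every control, and neither control 4 nor control 3, the extremes for Gnrhr, was at either end of the control range. The mean went from 12.1 ± 1.49 to 4.91 ± 0.777 CPM (SD, 6 libraries each), with a log2 fold change of -1.30 (standard error 0.114, 95% interval -1.55 to -1.06, edgeR adjusted p 8.64e-06). Its antisense gene 4933433P16Rik, named after its values were seen, held 56 to 91 fragments in controls and 26 to 42 in the others. It was under the filter. With no filter its log2 fold change was -1.28 (edgeR adjusted p 0.00013), and without strand the reads of both genes cannot be told apart.

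Nr0b1 encodes a repressor of NR5A1 and was the least abundant of the 6 genes. Its controls ranged from 1.71 through a median of 2.02 to 2.71 CPM, or 83 to 137 fragments. The libraries labelled mutant ranged from 0.485 through 0.598 to 0.815 CPM, or 22 to 49 fragments. The groups did not overlap, and control 0 was the highest of the 12. The mean went from 2.13 ± 0.343 to 0.613 ± 0.119 CPM (SD, n = 6 each), a 3.45-fold fall with a log2 fold change of -1.79 (standard error 0.148, 95% interval -2.11 to -1.47, edgeR adjusted p 6.7e-06).

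Both genes of the Foxl2 locus fell. Foxl2, a forkhead factor of the gonadotrope and thyrotrope, ranged from 22.8 through a median of 26.8 to 31.8 CPM in controls and from 11.5 through 15.1 to 16.6 CPM in the libraries labelled mutant. Foxl2os, whose function is not described here, ranged from 33.8 through 37.4 to 48.2 CPM in controls and from 17.3 through 22.7 to 24.8 CPM in the others. For both genes the highest library was control 5 and the lowest was mutant 4. The log2 fold change of Foxl2 was -0.89 (standard error 0.091, 95% interval -1.09 to -0.69, edgeR adjusted p 2.97e-05) and that of Foxl2os was -0.86 (standard error 0.0997, 95% interval -1.07 to -0.64, edgeR adjusted p 9.31e-05). Against a fold of at least 1.5, edgeR's glmTreat gave adjusted p values of 0.0514 for Foxl2 and 0.169 for Foxl2os, so both missed that stricter call. In the authors' deposited table the 2 listed Foxl2os transcripts had log2 fold changes of -0.85 and -0.86.

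Foxp2, a forkhead repressor known for its part in brain and lung development, did not pass the test. It ranged from 27.6 through a median of 30.5 to 42.8 CPM in controls and from 27.1 through 32.6 to 37.7 CPM in the libraries labelled mutant. The groups overlapped, and the highest library was control 0. The log2 fold change was -0.05 (95% interval -0.32 to 0.23, edgeR adjusted p 0.878), and the exact two-sided permutation test gave p = 0.829. The interval excludes a fall as large as that of any of the other 5 genes, each at -0.86 or lower. In the authors' deposited table its transcripts NM_212435 and NM_053242 had log2 fold changes of 0.03 and -0.09.

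The order of the genes was compared per length, in FPKM (fragments scaled for transcript length and library size). In controls the mean levels were 11.5 FPKM for Foxl2, 8.65 for Foxl2os, 7.54 for Gnrhr, 5.11 for Foxp2, 4.22 for Nr5a1 and 1.27 for Nr0b1. Gnrhr overlapped with both of its neighbours in that order, and Foxp2 overlapped with Nr5a1. In the libraries labelled mutant the levels were 6.18 FPKM for Foxl2, 4.96 for Foxp2, 4.77 for Foxl2os, 1.70 for Nr5a1, 0.942 for Gnrhr and 0.365 for Nr0b1. There Foxp2 overlapped with both of its neighbours, and Gnrhr lay below Nr5a1 in all 6. In controls Gnrhr lay above Nr5a1 in 4 of 6 libraries, and their ranges overlapped.

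Whether the genes fell by different amounts was tested on the log2 ratio of each pair within a library. With a pseudocount such a ratio depends slightly on the scaling of the library, and without one it does not. Of 15 ratios, 13 differed between the groups (exact two-sided permutation test on log2(CPM + 0.5), Benjamini-Hochberg over the 15). All 5 ratios of Gnrhr to another gene were lower in the libraries labelled mutant. The mean log2 ratio of Gnrhr to Nr5a1 went from -0.75 ± 0.72 to -1.88 ± 0.33 (SD, 6 libraries each), a difference of -1.12 (exact permutation test, adjusted p 0.0135). Against Foxl2 the difference was -1.47 and against Foxp2 it was -2.32, each with an adjusted p of 0.00463 by the same exact test. The sizes moved with the pseudocount, since Gnrhr in the libraries labelled mutant also lies near it. Against Nr5a1 the difference was -1.54 with none and -0.87 with 1 CPM, and against Foxl2 it was -1.95 and -1.17. These ratios kept their call at each setting.

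The ratio of Foxl2 to Foxl2os varied least within both groups. Its mean was -0.51 ± 0.08 in controls and -0.54 ± 0.05 in those labelled mutant (SD, 6 libraries each), a difference of -0.03 (exact permutation test, adjusted p 0.552). Nr5a1 fell more than Foxl2, by 0.35 on the log2 scale of their ratio (exact permutation test, adjusted p 0.015). Nr5a1 against Nr0b1 depended on the pseudocount, since Nr0b1 lies near it. The difference was 0.01 (exact permutation test, adjusted p 0.942) with 0.5 CPM added and 0.49 (adjusted p 0.0255) with none. The same holds for Nr0b1 against Foxl2, with a difference of -0.36 (adjusted p 0.00463) with 0.5 CPM, -0.91 with none and -0.10 (adjusted p 0.504) with 1 CPM, all by the exact permutation test.

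**Figure D3:**
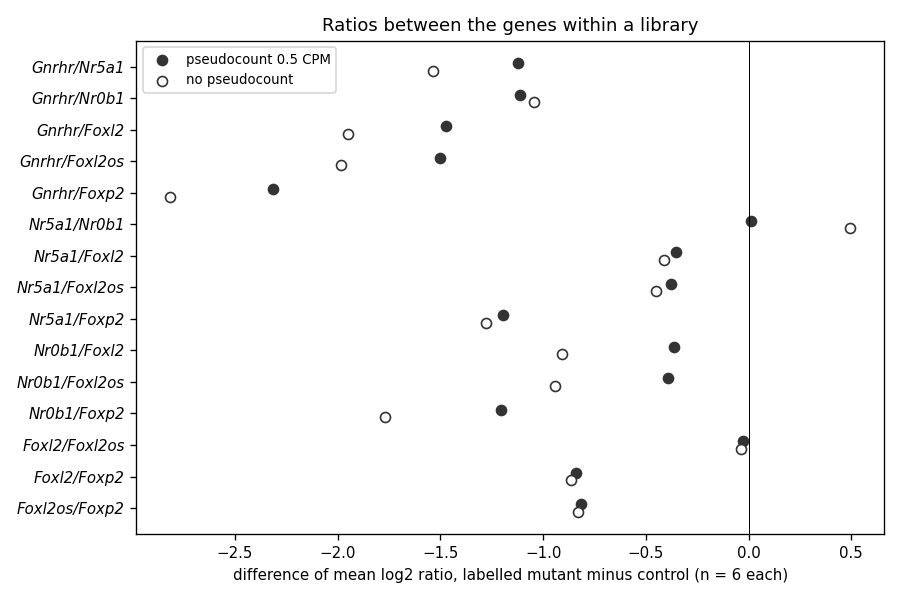
Difference between groups in the mean log2 ratio of each pair of genes within a library (x axis, log2, n = 6 each), with 0.5 CPM added (filled) and with no pseudocount (open). The 5 Gnrhr ratios lie between -1.11 and -2.32 with the pseudocount, and Foxl2/Foxl2os lies near 0 both ways.

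Gnrhr was set beside the hormone subunit genes of gonadotropes, of which Cga is also a thyrotrope gene. Cga, the shared alpha subunit, fell with a log2 fold change of -2.30 (edgeR adjusted p 5.92e-05). Lhb (-2.85, edgeR adjusted p 0.0969) and Fshb (-2.34, edgeR adjusted p 0.0665) did not pass. Both passed in DESeq2 (adjusted p 0.0307 and 0.0189) and with a Y-linked covariate in edgeR (0.00755 and 0.00725), and Fshb also without control 2 (0.0372) or control 3 (0.0497). Without control 4 the edgeR log2 fold change was -1.33 for Lhb (adjusted p 0.334) and -1.44 for Fshb (adjusted p 0.177). With the replicate number as a block it was -1.80 (edgeR adjusted p 0.307) and -1.67 (0.189). Over the controls Lhb ranged from 1.89 to 72.9 CPM and Fshb from 5.64 to 130 CPM. Control 4 was the highest library for Gnrhr, Cga, Lhb and Fshb. Over the 6 controls, Gnrhr had Pearson's r of 0.835 with Fshb (exact permutation p 0.05) and a Spearman's rho of 0.829 (exact permutation p 0.0583). Of 8 such relations none passed adjustment, and the adjusted values for Fshb were 0.2 for r and 0.233 for rho. These correlations are of log2(CPM + 0.5). Without controls 3 and 5, the farthest from the median of Gnrhr on that scale, r with Fshb was 0.986 over 4 libraries. Without control 4 it was 0.703 over 5 libraries, and without controls 3 and 4, the farthest on the linear scale, 0.608 over 4. With Nr5a1, r was 0.192 (exact permutation p 0.671, adjusted 0.725) and rho was 0.486 (exact permutation p 0.356, adjusted 0.712). That r was 0.728 without controls 3 and 5 and 0.0143 without controls 3 and 4.

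**Figure D4:**
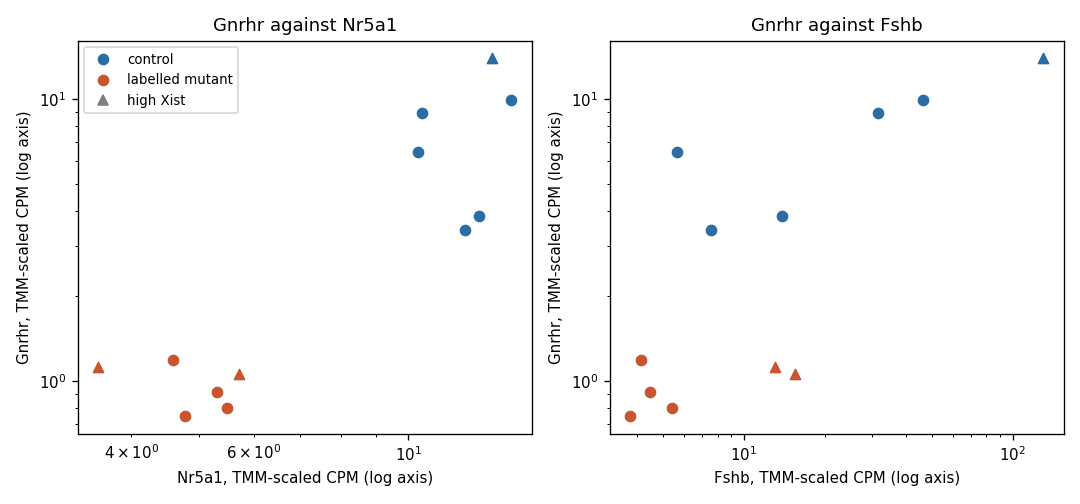
Gnrhr against Nr5a1 (left) and Fshb (right), TMM-scaled CPM on logarithmic axes, 1 point a library, with triangles for high Xist. The groups are apart along Gnrhr and Nr5a1 and overlap along Fshb, where control 4 is at 13.9 CPM of Gnrhr and 130 CPM of Fshb.

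A search for genes that follow Gnrhr took in 12705 tested genes. It left out the hormone subunit genes, Cga among them, Xist, Y-linked genes and predicted or clone names, so it does not rank those. Among the genes searched, the closest in log2 CPM over the 12 libraries were Pde4dip (r 0.954), Mtnr1a (r 0.944), Mia3 (r 0.940), Slc7a14 (r 0.939) and Dpp10 (r 0.938). These libraries share the group difference, and of the 5 Mtnr1a, a melatonin receptor gene, had the lowest log2 fold change, -1.14 (edgeR adjusted p 6.7e-06). Deviations of Gnrhr from the group means were larger in controls (SD of 0.737 on the log2 scale) than in the libraries labelled mutant (0.176). Correlations of deviations thus rest mainly on the 6 controls. By this measure the closest were Cisd2 (r 0.893), Rgs4 (r 0.846), Arg1 (r 0.842), Far1 (r 0.831) and Peg10 (r 0.816). They were picked from 12705 genes by r itself, which was not tested. None of those 5 passed the edgeR test, where adjusted p ran from 0.053 to 0.937. Over 27 alternatives each, the adjusted p of Rgs4 ran from 0.021 to 1.0 and that of Peg10 from 0.0482 to 1.0. Rgs4 stayed uncalled in 19 of the 27. It was called in DESeq2 and in edgeR with no filter, with edgeR's filterByExpr and with a Y-linked covariate. Leaving out control 2, control 3, control 5 or mutant 0 also gave a call for Rgs4. Peg10 was called without control 3.

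Other gonadotrope markers were read beside the 6 genes. Of 4 tested genes on the marker list that are not among the 6, 1 was lower and 1 higher. Over all genes tested, 2.75% were lower and 4.3% higher. Gata2, a zinc finger factor of gonadotropes and thyrotropes, fell from 69.3 ± 10.5 to 51.0 ± 5.54 CPM (SD, 6 libraries each), with a log2 fold change of -0.44 (edgeR adjusted p 0.012), and Isl1 was the gene that rose. Spp1 was at 0.01 and Dlk1 at -0.00 on the log2 scale, with edgeR adjusted p of 0.982 and 0.98.

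The genes that carry the signal from the GnRH receptor were read next. Of 35 tested, 2 were lower (5.71%, against 2.75% of all genes tested) and 1 was higher (2.86%, against 4.3%), and the median log2 fold change was 0.02, against -0.00 over all genes tested. Prkcb, a protein kinase C gene, fell with a log2 fold change of -0.39 (edgeR adjusted p 0.0109), and Gna11, a G protein alpha subunit of the Gq class, with -0.16 (edgeR adjusted p 0.013). Gna11 missed the call without the libraries with high Xist (adjusted p 0.0542). Plcb3, a phospholipase C gene, rose with 0.18 (edgeR adjusted p 0.0198), but missed it without control 1 (edgeR adjusted p 0.0524), without the high-Xist libraries (0.106), with the replicate block (0.0504) and in all 3 limma fits. Gnaq (-0.08, edgeR adjusted p 0.323) and Egr1, an immediate early factor that acts on Lhb (0.22, edgeR adjusted p 0.593), did not pass. Most of these genes are active in many cell types of the gland.

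Of 14 tested genes of activin signalling, which acts on Fshb together with FOXL2, edgeR called 0, and 0 had an unadjusted p under 0.05. Their median log2 fold change was 0.00. Of all genes tested, edgeR called 2.75% lower and 4.3% higher, and 0 of 14 lies near those shares. Of 19 tested partners of NR5A1, Gata2 and Pitx1 were lower (10.5%) and Otx1 was higher (5.26%), with a median of -0.03. Pitx1 (-0.23, edgeR adjusted p 0.0381) and Otx1 (0.63, edgeR adjusted p 0.0459) kept the call in 12 of 27 and 8 of 26 alternative fits. Of 4 tested steroid receptor genes, Esr1 (-0.38, edgeR adjusted p 0.0371) and Nr3c1 (-0.15, edgeR adjusted p 0.0283) were lower. Esr1 lost the call in 13 of 26 alternative fits and Nr3c1 in 14 of 27, in both cases also without the libraries with high Xist.

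Of 13 other tested forkhead genes, 0 were lower (against 2.75% of all genes tested) and 2 were higher (15.4%, against 4.3%). They were Foxa1 (log2 fold change 3.70, edgeR adjusted p 8.97e-06) and Foxj1, a regulator of motile cilia (1.35, edgeR adjusted p 1.9e-05). Foxp1 (0.05) and Foxp4 (-0.13), relatives of Foxp2, did not pass. Foxa1 reached the FPKM filter in no control, which fixes its direction, so the count is no support. The median of the list was -0.05.

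**Figure D5:**
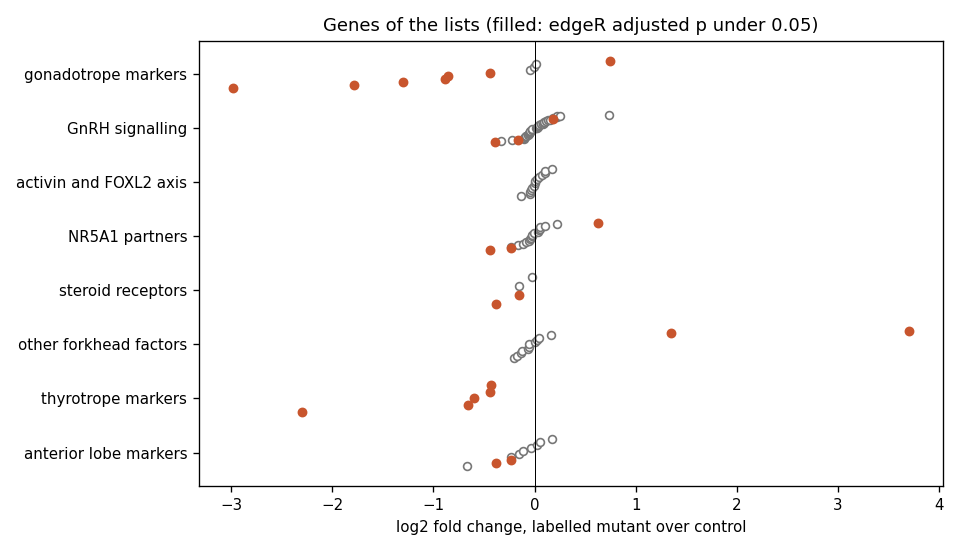
Log2 fold change (x axis, libraries labelled mutant over control) of each tested gene of 8 lists, 1 point a gene, filled where the edgeR adjusted p is under 0.05. The filled points of the gonadotrope list reach -2.99, and most points of the GnRH signalling and activin lists lie near 0.

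Markers of other cells were read beside these results. The shares over all genes tested were 2.75% lower and 4.3% higher. All 5 thyrotrope markers tested (Tshb, Trhr, Dio2, Gata2, Cga) were lower, with a median log2 fold change of -0.60, but Trhr (edgeR adjusted p 0.0416) lost the call in 18 of 26 alternative fits. Foxl2, Gata2 and Cga belong to both cell types. Tshb had -0.60 (edgeR adjusted p 0.00804) and Dio2 -0.66 (edgeR adjusted p 0.0014). Of 10 anterior and intermediate lobe markers, Pax7 (-0.38, edgeR adjusted p 0.00464) and Pitx1 were lower, and Gh (-0.16, edgeR adjusted p 0.312) did not pass. NR5A1 and NR0B1 also mark steroidogenic cells. Of the 13 steroidogenic markers 1 was tested, Star (-0.07, edgeR adjusted p 0.426). Their summed level was 16.8 to 18.2 CPM in controls and 16.0 to 18.1 CPM in the libraries labelled mutant, and Cyp11b1, Cyp11b2, Hsd3b1, Hsd3b2 and Fshr were under 1 fragment a library. Summed neuron markers were 336 to 419 CPM in controls and 365 to 439 CPM in the others, with 1 of 11 tested lower and 1 higher, and summed pituicyte markers were 354 to 475 and 343 to 428 CPM, with 1 of 7 lower. Most of the neuron sum was Syt1, with means of 279 CPM in controls and 295 CPM in the others. Star, at 14.9 and 14.1 CPM, made most of the steroidogenic sum. These 2 sums therefore speak mainly of those genes. The 12 tested markers of stratified and ciliated epithelium were all higher, but 6 of them reached the FPKM filter in no control, which fixes their direction. The summed level of the whole list, genes under the filter included, was 43.2 to 49.5 CPM in controls and 129 to 281 CPM in the others. The part of the epithelial and thyrotrope markers in the fall of the 5 genes was not tested.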

How the data were processed

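The members and gene lists were chosen with earlier results of these data known. Groups follow the labelled genotype. Samples are individual ones per the series design, so p-values set the group difference against the spread between samples. RNA came from an RNAqueous micro kit and libraries from TruSeq RNA v2, per the labels' protocols. The submitters' processing notes name Cuffdiff 2.1.1, Cufflinks, Bowtie2 2.1.0, TopHat2 2.0.9 and FastQC 0.10.1, and build mm10.

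The deposited per-library table gives estimated counts (raw fragments) and FPKM, per the file headers. The authors' deposited comparison table gives FPKM per group, log2 fold changes and q-values. Another 12 per-sample columns (scaled fragments) were not used. Counts were rounded to whole numbers. A gene was tested where its FPKM reached 1 in 6 or more of 12 libraries (15246 genes, against 11883 below) with edgeR 4.0.16 in R 4.3.3. Genes were scaled by TMM, and CPM is relative to the scaled total. The alternatives used limma 3.58.1 on log2(FPKM + pseudocount), DESeq2 1.42.0, other filters and scalings, a Y-linked covariate, the replicate block, a fold minimum, and leaving out libraries. The fit with no pseudocount for ratios and exact tests was chosen after seeing the data, as were the correlations without control 4. The test was checked on simulated counts. No library was a duplicate, since replicates differed beyond sampling noise (30 pairs, chi-square per degree of freedom 17.5 to 41.5). Genes named from a list were the called ones, at most 4 by adjusted p. Besides them came the 6 genes, the hormone subunits and, by each measure, the 5 searched genes nearest to Gnrhr. Genes given as not passing, and the list medians, describe the rest. These and 4933433P16Rik were named after their values were seen. Intervals cover the spread between libraries. From the gene lists 2 genes are not reported here and were left out of the counts. Figures were drawn with matplotlib 3.10.9.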

Additional observations from a re-analysis of the deposited data

Results flagged for a closer look

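In 18 groups of 6 values (the 6 genes and the 3 hormone subunit genes, in each genotype), 2 held a library far from the others by Dixon's criterion for 6 values. Lhb in control 4 was at 72.9 CPM, with a gap of 0.765 of the group's range, and Fshb in control 4 was at 130.0 CPM, with a gap of 0.671. Chance flags about 1 in 20 groups. None of the 6 genes was far out in control 4 by this criterion, although that library was also the highest for Gnrhr at 13.9 CPM. Control 4 is the only control with high Xist and with Y-linked genes near 0. Of the libraries labelled mutant, the 2 with high Xist, mutant 0 and mutant 3, were the highest for both genes. They were at 6.16 and 4.31 CPM of Lhb and at 15.6 and 13.0 CPM of Fshb. For Gnrhr the highest of that group was mutant 2, at 1.18 CPM. Whether these levels differ with Xist was not tested.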

How the results depend on the processing

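Gnrhr, Nr5a1 and Nr0b1 kept their direction and their call in all 26 alternatives that tested them. Their log2 fold changes ran from -3.13 to -2.01 for Gnrhr, -1.39 to -0.95 for Nr5a1 and -1.89 to -0.73 for Nr0b1. Foxl2 (-0.96 to -0.81) and Foxl2os (-0.91 to -0.74) kept theirs in 26 of 27. Against a fold of 1.5 they were at -0.89 (edgeR adjusted p 0.0514) and -0.86 (0.169), which left 3 of the 6 genes called. Foxp2 passed in none of 26 (-0.10 to 0.04, adjusted p 0.719 to 1.0). With FPKM of at least 5 only Foxl2 and Foxl2os were tested, and 2 genes were called. Leaving out a library left 5 of the 6 called each time. Of all genes, 656 were called higher and 419 lower. The counts were 283 and 192 with FPKM of at least 5, 379 and 144 without the libraries with high Xist, and 133 and 7 against a fold of 1.5. DESeq2 called 807 lower, and limma with a pseudocount of 1, 0.1 and 0.5 called 216, 214 and 215 lower. Leaving out 1 library gave 485 to 694 higher and 197 to 443 lower, and the lower count moved by over 1.5 times without control 1 (197), control 3 (259), control 4 (273) or mutant 1, 2, 3 or 4 (237, 211, 239 and 248). Scaling to the library total gave 734 higher and 282 lower, and the upper quartile 747 and 294. The cause was not tested. Of the ratios, Nr0b1/Foxl2 was at -0.10 (exact permutation test, adjusted p 0.504) and Nr0b1/Foxl2os at -0.12 (0.369) with a pseudocount of 1, and Nr5a1/Nr0b1 at 0.49 (0.0255) with none. Correlations of deviations between same-numbered libraries were -0.056 to 0.303, and 4 of 6 controls matched the library of their own number best. The labels name no pairing by replicate number, and whether the numbers reflect one was not tested. With the replicate number as a block, 672 genes were called higher and 401 lower, 5 of the 6 genes stayed called, and Gnrhr was at -2.83 (edgeR adjusted p 0.000843). Depth limits Nr0b1 and Gnrhr most, with 22 to 49 and 34 to 71 fragments a library in the libraries labelled mutant.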
